A study of Mus musculus with 52 samples.

Results

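The transcription factor genes that separate the red cell lineage from the granulocyte and monocyte lineage were followed cell by cell in daughter cells of mouse erythroid progenitors of the burst-forming unit type (BFU-E). The 10 genes, Gata1, Gata2, Klf1, Spi1, Tal1, Lmo2, Zfpm1, Nfe2, Gfi1b and Cebpa, were chosen by symbol for their known place in erythroid or myeloid lineage choice, and all 10 of 10 were found among the 49466 genes of both count tables. The sorted BFU-E cells, called founders because each was grown into a pair, came from fetal liver of C57/Bl6J mice at embryonic day 14.5. Cells with surface markers of mature lineages, CD16/32, CD41 or Sca-1 had been removed, and the rest had been sorted with antibodies to Kit, CD71 and CD24. Each founder was kept alone in a well for 16 hours, untreated or with the synthetic glucocorticoid dexamethasone at 100 nM, and only wells with 1 completed division were used. The 2 daughters of each founder were then sequenced as separate single-cell libraries of polyadenylated RNA, from 13 untreated and 13 dexamethasone pairs. No allele or transgene is named in the labels, both groups shared the same medium, and no label names the animal. The p-values for dexamethasone below therefore measure against the spread between founder cells and their wells. The p-values for differences between founders measure against the spread between the 2 daughters of a founder.

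GATA1, a zinc finger factor, and KLF1, which binds CACCC elements, activate globin, heme synthesis and red cell membrane genes, while the ETS factor encoded by Spi1 and the leucine zipper factor encoded by Cebpa activate granulocyte and monocyte genes. GATA1 and the Spi1 protein bind each other and oppose each other's targets, and GATA2, which works in stem cells and early progenitors, is replaced by GATA1 at many sites as red cells form. TAL1 and LMO2 sit with GATA factors in one DNA-bound complex, the product of Zfpm1 is a cofactor of GATA1, NFE2 is a subunit of a globin locus activator, and GFI1B is a repressor needed for red cell and platelet precursors.

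Promoter windows from 250 bases before to 50 bases after the start site were taken from a set based on RefSeq (build GRCm38.p6). The set used here held windows of 7 of the 10 genes. Spi1, Lmo2 and Nfe2 were not among them. The windows of Klf1 and Gata1 are shown because these genes were detected in exactly the same cells, and that of Gfi1b because it followed them less closely. Capitals mark the GATA motif (GATAA, or TTATC on the other strand) and the CACCC motif (CACCC, or GGGTG on the other strand), which share no letters here.
Klf1, chr8:84901732-84902031, plus strand: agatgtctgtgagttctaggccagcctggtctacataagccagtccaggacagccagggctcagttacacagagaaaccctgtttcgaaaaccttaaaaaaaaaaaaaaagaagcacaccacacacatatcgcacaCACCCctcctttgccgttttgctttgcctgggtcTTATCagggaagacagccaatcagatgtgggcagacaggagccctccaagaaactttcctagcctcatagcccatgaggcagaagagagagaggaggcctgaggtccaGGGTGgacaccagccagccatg
Gata1, chrX:7967861-7968160, minus strand: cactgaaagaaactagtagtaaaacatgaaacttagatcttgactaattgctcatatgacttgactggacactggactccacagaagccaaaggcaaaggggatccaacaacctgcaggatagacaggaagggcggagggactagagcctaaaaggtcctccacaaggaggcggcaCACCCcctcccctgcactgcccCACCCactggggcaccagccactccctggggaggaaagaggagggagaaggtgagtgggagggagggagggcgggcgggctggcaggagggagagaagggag
Gfi1b, chr2:28621933-28622232, minus strand: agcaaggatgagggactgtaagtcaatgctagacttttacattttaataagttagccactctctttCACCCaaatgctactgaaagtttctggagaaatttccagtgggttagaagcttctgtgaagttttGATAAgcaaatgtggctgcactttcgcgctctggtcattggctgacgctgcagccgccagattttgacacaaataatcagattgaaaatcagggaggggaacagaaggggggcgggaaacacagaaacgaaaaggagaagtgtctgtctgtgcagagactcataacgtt
The GATA motif stood 80 bases before the start site of Klf1 and 119 bases before that of Gfi1b, and one of the Tal1 windows also held it, 205 bases before the start. It was not among the letters of the Gata1 window, nor of those of Gata2, Cebpa and Zfpm1. Of the 32851 promoter windows of this length that were counted, which did not cover every chromosome, 25.41% held the GATA motif and 57.52% the CACCC motif. A match of these letters is a description and does not show binding.

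Of the 52 libraries, 48 held at least 100000 counts (210383 to 5606500), 22 from untreated and 26 from dexamethasone cells, and the values below come from these. The other 4 libraries, all untreated, held at most 13575 counts. In 23 pairs, 10 untreated and 13 dexamethasone, both daughters passed this limit. A level is given in CPM, the counts of a gene scaled to a common library total, and a gene is called detected at 10 CPM or more. A floor of 3 counts is 0.535 CPM in the deepest library but 14.3 CPM in the shallowest of the 48, and it covers counting error only, because reads carried no molecular identifiers. Tsc22d3, a direct target of the glucocorticoid receptor, was detected in 2 of 22 untreated and 16 of 26 dexamethasone cells. Its log2 fold change of 1.96 ± 1.48 (SE) had an adjusted p of 1.00 in edgeR over the 23 pairs. Without the 7 pairs that held a cell with granulocyte and monocyte markers, described next, the fitted log2 fold change was 11 with an adjusted p of 0.00466 in edgeR. Both untreated cells with Tsc22d3 (untreated pairs 5 and 10) are left out there, so that size depends on untreated values near 0 and is no bound.

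The labelled cell type was checked against marker genes. In 12 of the 48 cells at least 3 of 15 granulocyte and monocyte markers reached 10 CPM, and these are called granule-marker cells below. They were 5 untreated and 7 dexamethasone cells from 7 of the 23 pairs, and their summed marker level ran from 100.3 to 42915 CPM, against 0 to 607 CPM in the other 36 cells. Mpo, the myeloperoxidase gene of granule precursors, had the highest mean of that list, while the late granule genes S100a9, Ltf, Camp and Ngp were at 0 counts in all 12. Fcgr3, which encodes CD16, a protein recognised by one of the depletion antibodies, reached 10 CPM in 8 of the 12 cells, with at most 1298 CPM, and in 0 of the 36. Itga2b, the gene of CD41, which had also been depleted, went the other way. It reached 10 CPM in 2 of the 12 cells and in 15 of the 36, with at most 604 CPM. The summed level of the 22 erythroid target genes found in the tables, of 23 listed, ran from 2394 to 18132 CPM in the other 36 cells and from 229 to 67873 CPM in the granule-marker cells. The upper end of the last range is 1 library, daughter 1 of dexamethasone pair 12, which also had the smallest total and only 3886 detected genes.

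Gata1 (chrX:7959260-7978071) and Klf1 (chr8:84901928-84905291) were detected in the same 39 of 48 cells, and no cell held one at 10 CPM without the other. Gata1 in untreated cells had a lowest value of 0.63, a median of 405 and a highest value of 870 CPM. In dexamethasone cells the corresponding values were 0, 444 and 2732 CPM. Klf1 ran from 1.02 through a median of 633 to 1643 CPM in untreated cells and from 0 through 537 to 7596 CPM in dexamethasone cells. The values of the 2 treatments overlapped for both genes, and the highest values were dexamethasone cells. Without daughter 1 of dexamethasone pair 12, the library with the smallest total, the highest Klf1 value in dexamethasone cells was 2570 CPM. The break lay within each treatment instead: 9 cells held Gata1 at 6.10 CPM or less and Klf1 at 4.88 CPM or less. Among the other 39 cells the lowest Gata1 value was 14.3 CPM, in daughter 1 of dexamethasone pair 12, where it rested on 3 counts, and the lowest Klf1 value was 114 CPM, in daughter 2 of dexamethasone pair 10.

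**Figure D1:**
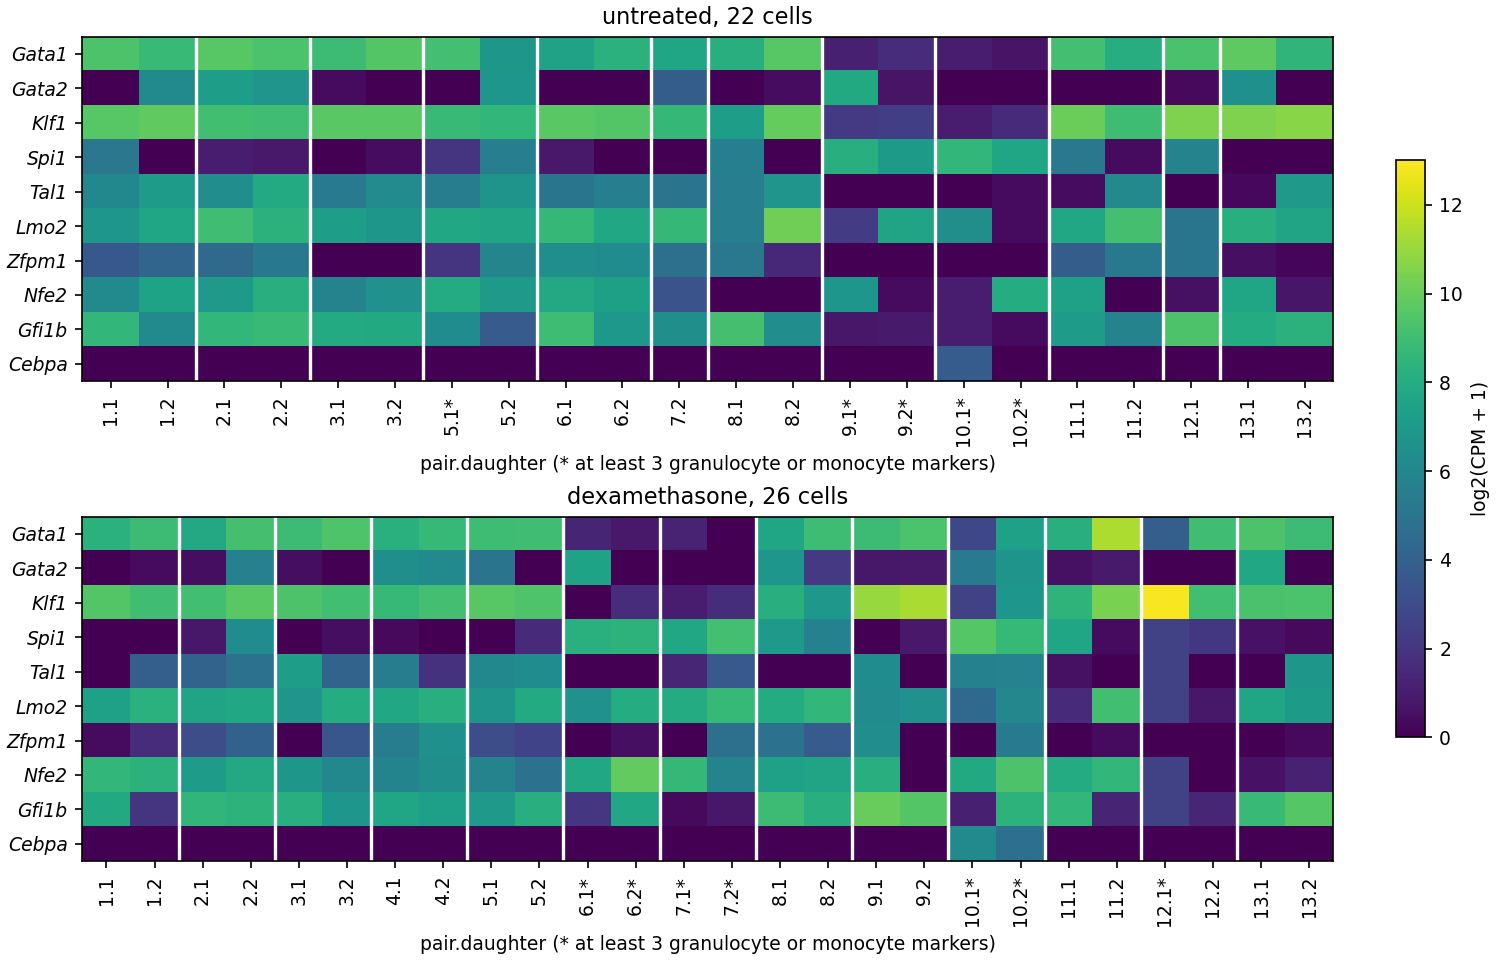
Level of each of the 10 genes (rows, log2(CPM + 1) as colour) in each of the 48 cells (columns, named pair.daughter), with white lines between pairs and the 22 untreated cells above the 26 dexamethasone cells. Gata1 and Klf1 are dark and Spi1 is bright in both daughters of untreated pairs 9 and 10 and dexamethasone pairs 6 and 7.

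The 9 cells without Gata1 were both daughters of untreated pairs 9 and 10, both daughters of dexamethasone pairs 6 and 7, and daughter 1 of dexamethasone pair 10. All 9 held Spi1 and all 9 were granule-marker cells, with Mpo from 4621 to 23921 CPM. Spi1 (chr2:91082390-91115756) had a lowest value of 134, a median of 305 and a highest value of 763 CPM in them. In the 39 cells with Gata1 it had a median of 0.564 CPM and a highest value of 411 CPM, so the ranges overlapped. Every one of the 48 cells held Gata1, Spi1 or both at 10 CPM. Of the 9 cells without Gata1, 4 were untreated and 5 had dexamethasone.

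Cebpa (chr7:35119293-35121928), whose product drives granulocyte and monocyte precursors, was the least detected of the 10 genes. It reached 10 CPM in 3 cells, daughter 1 of untreated pair 10 with 12.7 CPM and the daughters of dexamethasone pair 10 with 71.1 and 25.7 CPM. It was at 0 counts in all 36 cells that were not granule-marker cells. Its exons overlap those of Gm45091 on the opposite strand by 51 bases, and whether the counting used strand is not stated in the sources used here. Among the 9 cells without Gata1 it was detected in 2 and had a median of 0 CPM.

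Spi1 was also found together with Gata1, in 10 of 48 cells from 9 founders, 5 untreated and 5 dexamethasone. Gata1 ran from 119 to 651 CPM in these 10 cells with a median of 390 CPM, and Spi1 ran from 34.5 to 411 CPM with a median of 53.6 CPM. Daughter 2 of dexamethasone pair 10 was the only granule-marker cell among them. In the other 9, which were of 36 cells without that marker set, Spi1 ran from 34.5 to 205 CPM and Mpo from 0 to 51.8 CPM. Klf1 in these 9 cells ran from 123 through a median of 385 to 1456 CPM, and in the 29 cells with Gata1 but no Spi1 from 408 through 681 to 7596 CPM (2570 CPM without daughter 1 of dexamethasone pair 12). Of the 9 cells, 5 lay below the lowest of the 29. The low Spi1 values of those 29 cells reached at most 4.75 CPM, so a gap from 4.75 to 34.5 CPM separated the cells with and without Spi1.

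**Figure D2:**
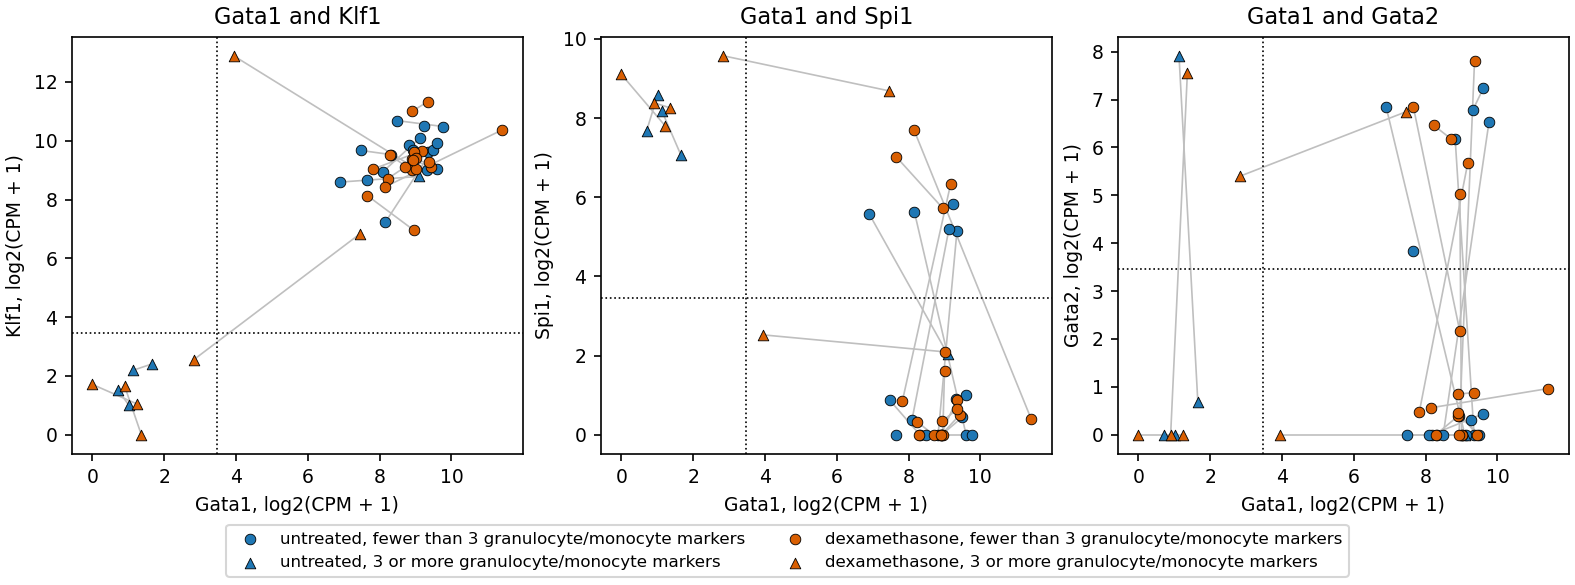
Level of Klf1 (left), Spi1 (middle) and Gata2 (right) against Gata1, both axes as log2(CPM + 1), 1 point a cell (48 cells), grey lines joining daughters of 1 founder, dotted lines at 10 CPM, colours for treatment and triangles for the 12 granule-marker cells. No cell lies in the upper left or lower right of the Klf1 plot, no cell lies in the lower left of the Spi1 plot, and Gata2 is spread over cells with and without Gata1.

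Gata2 (chr6:88193891-88207032) showed neither pattern. It was detected in 16 of 48 cells, 7 of 22 untreated and 9 of 26 dexamethasone cells. Of these, 13 held Gata1 and 3 did not. The 3 were daughter 1 of untreated pair 9 with 240 CPM, daughter 1 of dexamethasone pair 6 with 186 CPM and daughter 1 of dexamethasone pair 10 with 41.2 CPM. In the 39 cells with Gata1 the median of Gata2 was 0.379 CPM and the highest value was 224 CPM, in daughter 1 of dexamethasone pair 13. The sister of that cell held 0 counts of Gata2. The 4 cells with all of Gata1, Gata2, Klf1 and Spi1 were daughter 2 of untreated pair 5, daughter 2 of dexamethasone pair 2, daughter 1 of dexamethasone pair 8 and daughter 2 of dexamethasone pair 10.

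Over these 4 genes, 6 of the possible combinations occurred. Gata1 with Klf1 alone was seen in 20 cells, with Gata2 added in 9, with Spi1 added in 6 and with both added in 4. Spi1 alone was seen in 6 cells and Spi1 with Gata2 in 3. A cell with Gata2 as the sole member of the 4 was not seen.

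Of the partners of GATA1, Lmo2 (chr2:103957986-103981878) was the most widely detected, in 43 of 48 cells, and Zfpm1 (chr8:122282141-122337251) in 21. Lmo2 crossed the split: it was detected in 36 of the 39 cells with Gata1 (median 209 CPM) and in 7 of the 9 without (median 93.5 CPM). Tal1 (chr4:115056426-115071755) was detected in 26 of the 39 cells with Gata1, with a median of 40.8 and a highest value of 243 CPM, and in 2 of the 9 without, at most at 51.6 CPM. Zfpm1 was detected in 20 of the 39 cells and 1 of the 9, the exception being daughter 2 of dexamethasone pair 7 with 26.5 CPM. Tal1 and Zfpm1 were thus missing at 10 CPM from many cells with high Gata1. In daughter 2 of dexamethasone pair 11, which had the highest Gata1 value of all cells, 2732 CPM, Tal1 stood at 0 counts and Zfpm1 at 0.317 CPM.

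Nfe2 (chr15:103248212-103258403) was the erythroid factor whose median was not lower in the cells without Gata1. It was detected in 7 of those 9, with a median of 220 CPM and a highest value of 931 CPM in daughter 2 of dexamethasone pair 6. In the 39 cells with Gata1 it was detected in 28, with a median of 116 and a highest value of 668 CPM. Gfi1b (chr2:28609450-28621982) was detected in 35 of the 39 cells with Gata1, with a median of 254 and a highest value of 1003 CPM, and in 1 of the 9 without. That cell was again daughter 2 of dexamethasone pair 6, with 210 CPM of Gfi1b beside 0.862 CPM of Gata1. Cells with Gata1 held 2 to 10 of the 10 genes with a median of 6, and cells without it 2 to 6 with a median of 3.

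Levels of different genes were compared per kilobase of exon. Klf1 had the highest mean over the 48 cells, 501 ± 748 CPM per kilobase (SD over cells), followed by Gata1 with 171 ± 174, Gfi1b with 130 ± 129 and Lmo2 with 102 ± 91.8. Nfe2 stood at 53.6 ± 60.9 and Spi1 at 33.3 ± 61.5 CPM per kilobase. Tal1, Gata2, Zfpm1 and Cebpa followed with 9.52, 6.60, 4.96 and 0.865 CPM per kilobase. Each pair of neighbours in this order differed by less than the larger of its SDs over cells. Without the 12 granule-marker cells Spi1 stood below Tal1 in this order, with 7.20 against 11.6 CPM per kilobase.

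Across cells the correlations mainly repeated the split. Over 48 cells Pearson's r of log2(CPM + 1) was 0.89 between Gata1 and Klf1, -0.73 between Gata1 and Spi1 and -0.77 between Klf1 and Spi1. Over the 36 cells that were not granule-marker cells the same values were 0.44, -0.22 and -0.41, each smaller and of the same sign. Spearman's rho between Gata1 and Spi1 did not keep its sign, with -0.49 over 48 cells and 0.03 over 36. Pearson's r went from 0.69 to -0.16 for Gata1 and Gfi1b, and from 0.30 to -0.44 for Gata1 and Zfpm1. Spearman's rho went from 0.43 to 0.01 for Gata1 and Gfi1b, and from 0.07 to -0.41 for Gata1 and Zfpm1. Gata1 and Gata2 had a Pearson's r of 0.01 over 48 cells and of -0.06 over 36, with a Spearman's rho of 0.08 and 0.06. These are descriptions with no test: the cells share founders, wells and plate columns (inferred from library names), and the libraries differ in depth. The 5 genes most like Klf1 by Spearman's rho over 48 cells were Pgp (0.77), Hspa8 (0.73), Hba-a1 (0.71), Asns (0.67) and Gata1 (0.67). Those most like Gata1 were Ddx39 (0.68), Klf1 (0.67), Asns (0.66), Usp39 (0.62) and Cited4 (0.61). Those most like Spi1 were Alox5ap, the pseudogene Gmfg-ps, H2afv, Ptprc and Coro1a, with values from 0.71 to 0.73. Over the 36 cells the values were smaller for Gata1 (Ddx39 0.43, Klf1 0.48, Asns 0.33, Usp39 0.42, Cited4 0.27), for Klf1 (Pgp 0.63, Hspa8 0.49, Hba-a1 0.55, Asns 0.49) and for Spi1 (0.42 to 0.47). The genes most like Gata2 reached only 0.49 to 0.54 and were Diaph1, Adgrg1, Mnd1, Tnfaip8 and Hlcs.

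Daughters of 1 founder were compared next, over the 23 pairs with both libraries at 100000 counts or more. Gata1 was detected in both daughters of 18 pairs, in neither of 4 and in 1 daughter of 1 pair, and Klf1 in the same way. Spi1 was in both daughters of 6 pairs, in neither of 11 and in 1 daughter of 6. Gata2 was in both daughters of only 3 pairs, in neither of 11 and in 1 daughter of 9. In all 6 pairs with Spi1 in 1 daughter, both daughters held Gata1, and 4 of these pairs were untreated and 2 had dexamethasone. At a threshold of 50 CPM only 2 pairs held Spi1 in 1 daughter, since Spi1 was at 34.5 to 48.3 CPM in the 4 untreated pairs. Of the 9 pairs with Gata2 in 1 daughter, 7 held Gata1 in both daughters and 2 in neither. The combination of the 4 genes was the same in both daughters of 10 of 23 pairs.

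The remaining genes lay between these. Lmo2 was in both daughters of 19 pairs, Nfe2 and Gfi1b of 15, Tal1 of 10 and Zfpm1 of 6. A single daughter held Tal1 in 7 pairs, Zfpm1 in 7, Nfe2 in 5, Gfi1b in 4 and Lmo2 in 3. Where both daughters held the gene, the median fold between them was 1.23 for Klf1 and 1.66 for Gata1, and 13 and 10 of 18 pairs were within 2-fold. For Gfi1b, Lmo2, Nfe2, Tal1 and Spi1 the median folds were 1.68, 1.67, 1.74, 2.01 and 2.02.

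**Figure D3:**
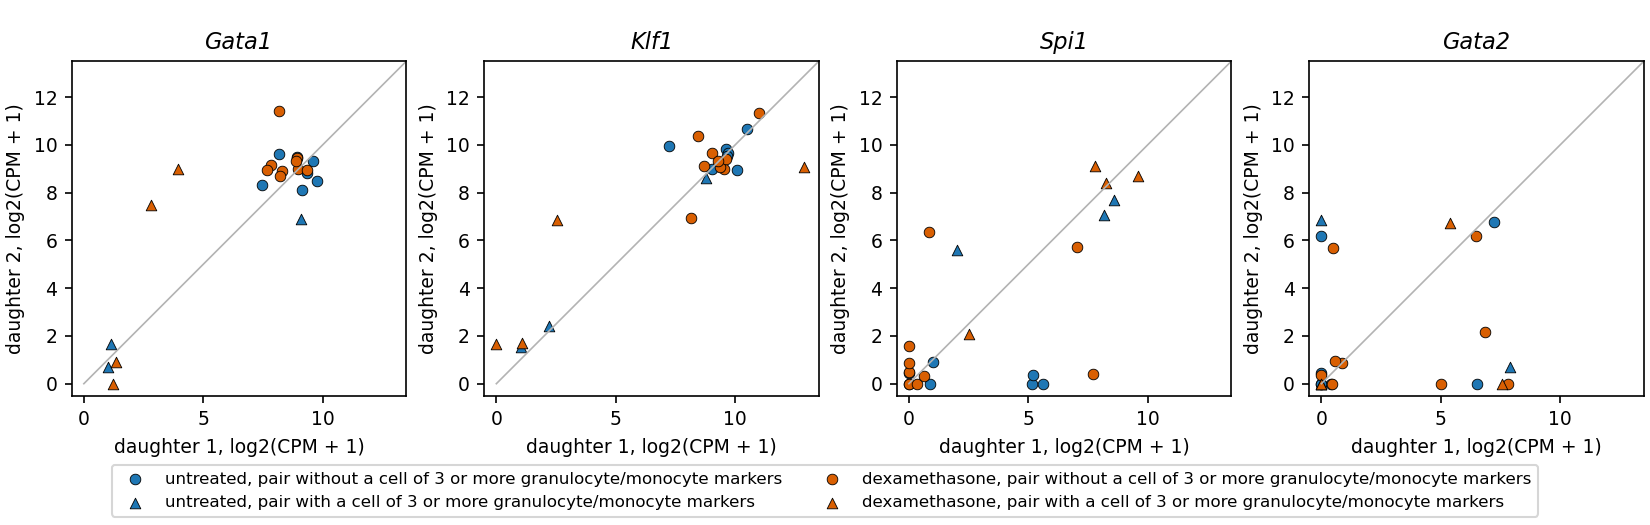
Level of Gata1, Klf1, Spi1 and Gata2 in daughter 2 against daughter 1 of each of the 23 pairs, both axes as log2(CPM + 1), with colours for treatment, triangles for the 7 pairs with a granule-marker cell and a grey line of equal values. Gata1 and Klf1 form 2 groups near the line, whereas Spi1 and Gata2 have points along both axes, the 6 and 9 pairs in which 1 daughter held the gene at 10 CPM (2 pairs for Spi1 at 50 CPM).

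On the log2(CPM + 1) scale, daughters differed in Gata1 by 1.25 ± 1.34 (SD over 23 pairs) on average, and cells of different founders under the same treatment by 3.29. For Klf1 the 2 values were 0.93 ± 1.20 and 3.51, and for Spi1 1.87 ± 2.21 and 3.98. For Gata2 they were 2.66 ± 3.10 and 3.20, close to the median over all tested genes, 2.23 and 2.74. Intraclass correlations, the share of the variance that lies between founders, were 0.90 for Klf1, 0.85 for Gata1, 0.68 for Spi1 and 0.16 for Gata2, against a median of 0.16 over all tested genes. Gfi1b, Zfpm1, Tal1, Nfe2 and Lmo2 had 0.58, 0.49, 0.39, 0.35 and 0.29.

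The likeness of daughters was tested with edgeR's quasi-likelihood F test of all founder terms within a treatment, with Benjamini-Hochberg adjustment over 8015 genes. Founders differed in 271 genes, which is 3.38% of those tested. Of the 9 members tested, 3 were among them, with adjusted p-values of 3.69e-06 for Klf1, 0.000199 for Gata1 and 0.0182 for Spi1. Gfi1b (0.184), Zfpm1 (0.245), Gata2 (0.284), Tal1 (0.398), Nfe2 (0.50) and Lmo2 (0.922) were not called in edgeR, and Cebpa had too few counts to be tested. The same 3 were called with all pairs that had counts in both libraries (3.42% of genes called) and with another scaling, RLE (3.94%). In limma, which called 651 genes, 8.12%, Gfi1b was also called, with an adjusted p of 0.0139. With founders compared only within a plate column, edgeR called 1.16% of genes, Klf1 and Gata1 among them, and Spi1 had an adjusted p of 0.176.

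No member was called between founders without the 7 pairs that held a granule-marker cell, and fewer genes were called in all. Whether the smaller number of libraries accounts for the lost calls was not tested. In the 16 pairs without one, a smaller set of libraries, edgeR called 39 genes, 0.537% of those tested, and 0 of 8 members. An unadjusted p under 0.05 in edgeR was found for 2 of the 8 members and for 9.77% of all genes tested. There limma called 212 genes, 2.92%, and 0 of 8 members. An unadjusted p under 0.05 in limma was found for 3 of the 8 members and for 18.2% of all genes tested. The adjusted p-values in edgeR were 0.366 for Klf1 and 0.598 for Gata1, and Spi1 had too few counts to be tested. In these pairs daughters differed in Gata1 by 0.90 ± 0.76 (SD, 16 pairs) and cells of different founders by 0.81. For Klf1 the 2 values were 0.62 ± 0.76 and 1.03, and for Zfpm1 1.41 ± 1.70 and 2.80. The intraclass correlations there were -0.17 for Gata1, 0.47 for Klf1 and 0.59 for Zfpm1. Lmo2 had the lowest, -0.37, and Nfe2, Gata2, Spi1, Tal1 and Gfi1b had 0.40, 0.25, 0.16, 0.04 and 0.02. The mean difference in Gata1 between sisters was thus not smaller than that between cells of different founders in these 16 pairs. For the other members it was smaller between sisters, only slightly so for Lmo2, except for Cebpa, which had no counts there. The median over all tested genes was also smaller, 2.13 between sisters against 2.55 between founders, with a median intraclass correlation of 0.12.

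**Figure D4:**
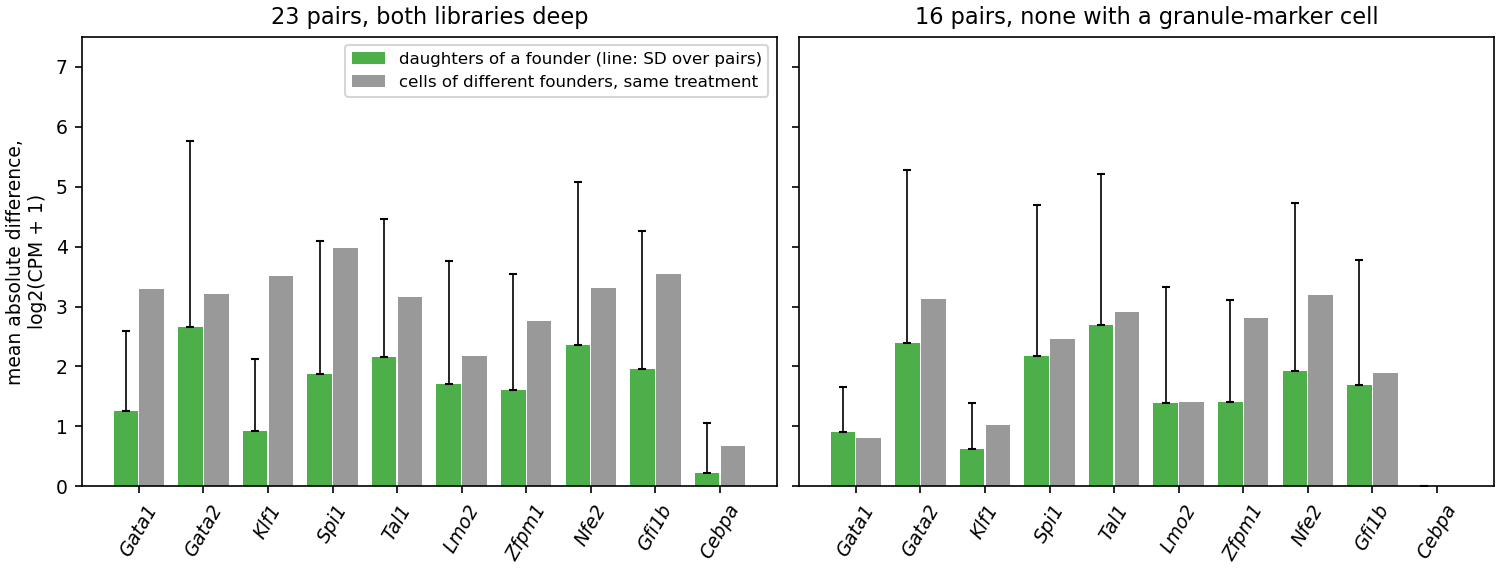
Mean absolute difference in log2(CPM + 1) between daughters of a founder (green, black line 1 SD over pairs) and between cells of different founders of the same treatment (grey) for the 10 genes, in the 23 pairs (left) and in the 16 pairs without a granule-marker cell (right). For Gata1 the grey bar stands at 3.29 on the left and at 0.81 on the right, beside green bars of 1.25 and 0.90.

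Some pairs set the factors apart from each other. In dexamethasone pair 10 both daughters held Spi1 (763 and 411 CPM), Cebpa, Gata2 (41.2 and 106 CPM) and Mpo (4843 and 14623 CPM). Gata1 stood at 6.10 CPM in daughter 1 and 176 CPM in daughter 2, Klf1 at 4.88 and 114 CPM, and Gfi1b at 1.22 and 341 CPM. It was the only pair in which Gata1 was detected in 1 daughter, and daughter 2 was the only cell with all 10 genes at 10 CPM. Daughter 2 had 9473 detected genes, the highest number of the 48 libraries, against 7902 in its sister, and whether it held RNA of more than 1 cell was not tested.

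In dexamethasone pair 11 both daughters held Gata1 and Klf1, but Gata1 was at 284 CPM in daughter 1 and 2732 CPM in daughter 2. Klf1 was at 345 and 1321 CPM. Spi1 and Gfi1b went the other way, with 205 and 388 CPM in daughter 1 against 0.317 and 1.58 CPM in daughter 2. Lmo2 was at 1.91 and 530 CPM, and Epor, the erythropoietin receptor gene, at 0 and 345 CPM. The 2 libraries had similar numbers of detected genes, 6029 and 6140.

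Daughter 1 of dexamethasone pair 12 had the highest Klf1 value of all, 7596 CPM, beside 14.3 CPM of Gata1, and no other member reached 10 CPM. With 210383 counts and 3886 detected genes it had the lowest of both among the 48 libraries, and whether this library was impaired was not tested. Its sister held 513 CPM of Gata1 and 530 CPM of Klf1, and no other member reached 10 CPM there either. In dexamethasone pair 9 both daughters had high Klf1 (2045 and 2570 CPM) and the highest Hba-a1 values, 3052 and 3216 CPM, of this alpha-globin gene, whose reads can be shared with its near-identical copy Hba-a2. In dexamethasone pair 8 both daughters held Gata1 and Spi1 without granule markers, and Klf1 was at 280 and 123 CPM, Epor at 0 in both, and Hba-a1 at 1.74 and 0 CPM. Untreated pair 5 met the marker rule through daughter 1 alone, with Mpo at 43.2 CPM beside 545 CPM of Gata1.

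The effect of dexamethasone was tested on counts summed over the daughters of a pair, 13 dexamethasone against 10 untreated pairs. In edgeR 0 of 7190 genes (0%) had an adjusted p under 0.05, and 71, or 0.987%, had an unadjusted p under 0.05. Of the 9 members tested, 0 were called and 0 had an unadjusted p under 0.05. The log2 fold change, dexamethasone over untreated, was 0.31 ± 0.80 (SE) for Gata1, 0.23 ± 0.83 for Klf1, 0.86 ± 1.41 for Spi1 and -0.10 ± 1.38 for Gata2. It was -0.99 ± 1.08 for Tal1, -0.34 ± 0.49 for Lmo2, -0.36 ± 1.19 for Zfpm1, 1.03 ± 0.80 for Nfe2 and 0.49 ± 0.81 for Gfi1b. Changes smaller than these errors, the smallest of which was that of Lmo2, were not detectable with these pairs. Larger changes can also be missed: that of Nfe2 exceeded its error and was not called. DESeq2 and limma also called 0 genes, with 173 and 304 at an unadjusted p under 0.05 and 0 members among them. Gata1, Klf1 and Gata2 had the opposite sign in limma.

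By treatment, Gata1 was detected in 18 of 22 untreated and 21 of 26 dexamethasone cells, and Spi1 in 9 of 22 and 10 of 26. Gata1 and Spi1 together were found in 5 untreated and 5 dexamethasone cells, and Spi1 without Gata1 in 4 and 5. At a threshold of 50 CPM, Gata1 and Spi1 together were found in 1 of 22 untreated and 5 of 26 dexamethasone cells. Tal1 was detected in 15 of 22 and 13 of 26 cells, Zfpm1 in 12 of 22 and 9 of 26, and Nfe2 in 14 of 22 and 21 of 26. These shares count cells that come in pairs and were not tested.

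The mean of log2(CPM + 1) over the daughters of a pair was compared for each member by a two-sided permutation test. Of the 10 members, 0 had an unadjusted p under 0.05, against 4.38% of 8080 genes. The smallest p was that of Tal1, 0.152. Pair means of Tal1 ran from 0 through a median of 5.59 to 7.16 in untreated pairs and from 0 through 3.17 to 6.19 in dexamethasone pairs, and the groups overlapped. Without the 7 pairs with a granule-marker cell, Tal1 was the 1 member with an unadjusted p under 0.05 of 10 tested. Its mean was 5.44 ± 1.46 (SD) in 7 untreated and 3.22 ± 2.16 in 9 dexamethasone pairs, a difference of -2.22 with an unadjusted exact permutation p of 0.037. In that comparison 4.54% of all genes passed the same threshold, and a count of 1 in 10 is not read as a result about the members.

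The absolute difference between daughters was compared in the same way, and 0 of 10 members had an unadjusted permutation p under 0.05, against 4.37% of genes. The smallest p was 0.162, for Nfe2, whose daughters differed by 1.67 ± 2.15 (SD) in 13 dexamethasone and 3.27 ± 3.21 in 10 untreated pairs. All 4 pairs with Gfi1b in 1 daughter had dexamethasone. The permutation p for the difference of Gfi1b between daughters was 0.203, with 2.50 ± 2.84 in 13 dexamethasone and 1.25 ± 1.11 in 10 untreated pairs.

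Within plate positions, which were inferred from library names, the treatments did not order the members in one way. In plate columns 1 to 4, with 8 dexamethasone and 6 untreated pairs, the mean of log2(CPM + 1) over daughters differed, dexamethasone minus untreated, by -2.04 in Gata1, -2.22 in Klf1, 1.69 in Spi1 and -3.13 in Tal1. In columns 5 to 7, with 5 and 4 pairs, the same differences were 2.94, 3.19, -1.35 and 0.99. Gfi1b also changed sign, from -1.21 to 2.07. Gata2 (0.25 and 0.43) and Nfe2 (1.24 and 0.63) kept theirs. Dexamethasone pairs 6 and 7, without Gata1, lay in column 4, and untreated pairs 9 and 10, without Gata1, in column 5. Within columns 1 to 4, columns 1 and 2 were untreated and 3 and 4 had dexamethasone, so treatment and single column cannot be told apart there. Within columns 5 to 7, column 5 was untreated and column 7 had dexamethasone. Only column 6 held both, so treatment and column can hardly be told apart there either. SDs over pairs in columns 5 to 7 reached 4.81, for Klf1 in untreated pairs.

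**Figure D5:**
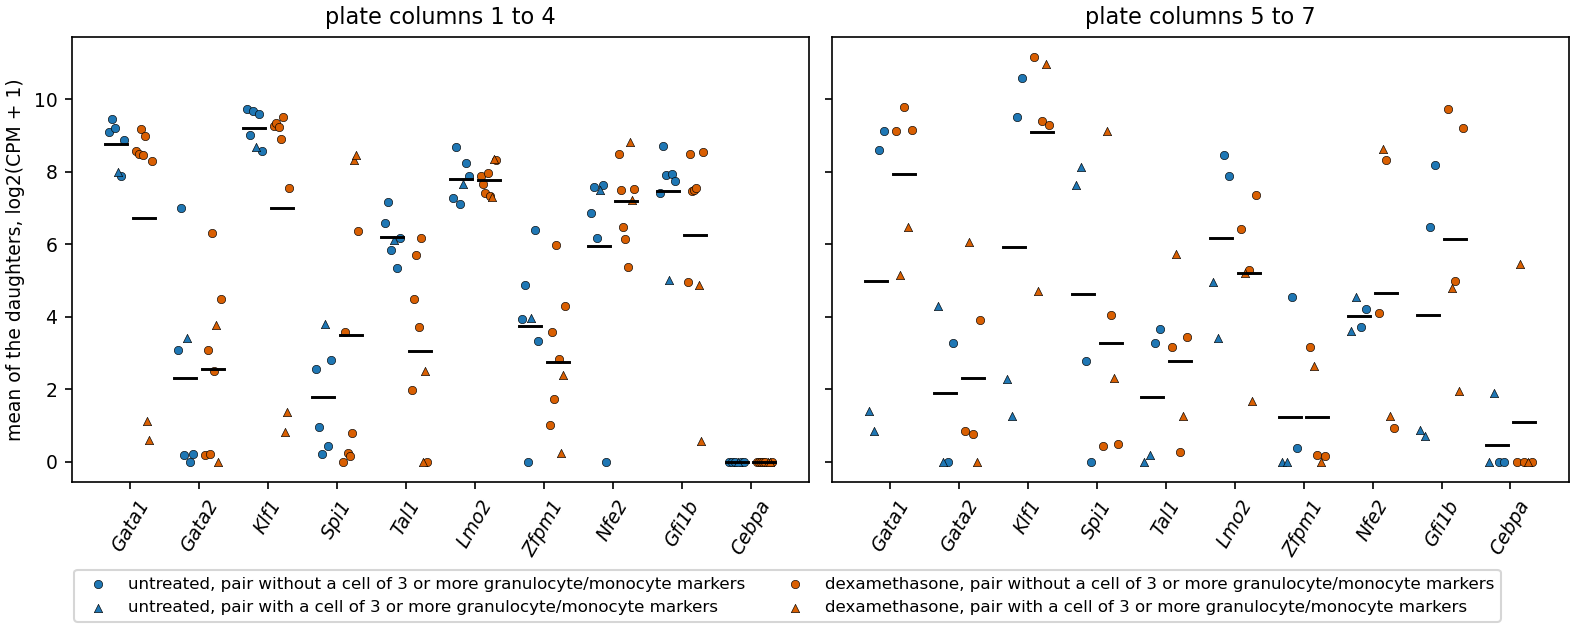
Mean of log2(CPM + 1) over the daughters of each pair for the 10 genes, in plate columns 1 to 4 (left, 6 untreated and 8 dexamethasone pairs) and 5 to 7 (right, 4 and 5 pairs), with black bars for means and triangles for pairs with a granule-marker cell. The 2 lowest points of Gata1 and of Klf1 are dexamethasone triangles on the left and untreated triangles on the right.

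Other genes of the same pathways were not called under dexamethasone either. Of 20 other erythroid and stem cell regulators, 16 were tested and 0 called, with 9 positive fold changes and a median log2 fold change of 0.156, against 0.0237 over all 7190 genes. Of 23 erythroid target genes, 17 were tested and 0 called, with 8 positive and a median of -0.111. Between founders, edgeR called 9 of 21 erythroid targets, among them Hba-a1, Hbb-bs, Kel and Rhag, and all 4 tested granulocyte and monocyte markers (Mpo, Ctsg, Prtn3 and Lyz2). It called 1 of 17 other regulators, Hmgb3. The granulocyte and monocyte list also defined the granule-marker cells, so its calls are no independent evidence of them.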

How the data were processed

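Single-cell RNA was measured in 52 daughter cells. The tables deposited by the authors, 1 per treatment, hold unnormalized whole-number read counts for each gene. Alignment and counting tools named in the submitters' processing notes are STAR 2.4 and featureCounts, with build GRCm38, and settings for strand and shared reads are not stated in the sources used here. Every column matched 1 sample, and 0 columns were left unused. Plate columns were inferred from the position codes in the library names. Each plate column goes with its own index sequence, so the effects of position and index cannot be told apart.

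The pair was the replicate of a treatment, and the daughters were the replicates of a founder. Main comparisons used the 23 pairs with at least 100000 counts in both libraries, whereas an earlier processing of these data kept the shallower libraries, which are put back as an alternative. The 10 members, the marker lists and the tests were chosen with earlier results of these data known. Treatments were compared with edgeR 4.0.16 (R 4.3.3) on counts summed per pair, with filterByExpr, TMM and glmQLFTest, and a standard error is the fold change divided by the root of F. Founders were compared on single-cell counts, keeping genes that had 5 counts or more in at least 10 libraries, with 1 term per pair within a treatment. P-values were adjusted by Benjamini-Hochberg over all genes tested. Levels were log2(CPM + 1), with a pseudocount of 1. Two-sided permutation tests used 100000 resamples, or all assignments for groups of under 10 pairs. limma 3.58.1 and DESeq2 1.42.0 served as alternatives. The fits were tested on simulated data. Gene positions and exon lengths came from GENCODE M21 (GRCm38).

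All 10 members were named. For Gata1, Gata2, Klf1 and Spi1, the rule also named the 5 genes with the highest Spearman correlation among 8080 genes, and up to 4 genes of each other list by mean CPM, with Mpo, Elane, Prtn3, Hba-a1, Epor and Tsc22d3 always. Genes outside this rule (Fcgr3, the late granule genes, called members of lists and the regulators in the closing section) were chosen after their values were seen. Pair numbers in the labels do not state a shared animal or day.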

Additional observations from a re-analysis of the deposited data

How the results depend on the processing

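Under dexamethasone 0 genes were called in every alternative but the one without the 7 pairs with a granule-marker cell, where edgeR called 1 gene, Tsc22d3, and no member. Members called were 0 in every alternative, and 0 to 0 when each pair was left out. The pair numbers shared by the treatments did not pair them (correlations of same-numbered pairs from -0.113 to 0.128 over 10 numbers), and with the pair number as a replicate block 0 of 6820 genes were called. Fold changes of Gata1 and Klf1 that turned sign were small against their errors in the main fit. They were Gata1 at -0.066 (limma) and Klf1 at -0.088 (limma), -0.0071 (plate covariate) and -0.032 (without the 7 pairs). Gata2 turned sign in 11 alternatives, those leaving out a pair included, and kept it in 20. It stood at 0.20 (all 26 pairs), 0.33 (limma), 1.21 (replicate block) and 0.25 (without the 7 pairs). The value of 1.21 was not small beside 1.38, the error of Gata2 in the main fit. The median of all genes was -0.152 in limma. Leaving out each pair gave -0.13 to 0.45 for Gata1 (negative only without dexamethasone pair 11), -0.36 to 0.46 for Gata2, -0.075 to 0.51 for Klf1 (negative only without dexamethasone pair 9) and -0.80 to 0.28 for Zfpm1 (positive only without untreated pair 6).

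Founders differed in 651 genes (8.12%) with limma and in 3313 (17.8%) without a filter on low counts. They differed in 93 (1.16%) within a plate column and in 39 (0.537%) without the 7 pairs. Members called were then 4 of 9, 7 of 10, 2 of 9 and 0 of 8. In limma without the 7 pairs, added after seeing the data, 0 of 8 members and 2.92% of genes were called. Leaving out each pair was not run in edgeR for founders; in limma Klf1, Gata1, Spi1 and Gfi1b kept an adjusted p under 0.05, and Zfpm1 gained one without dexamethasone pair 7, 9 or 10 (0.0288 to 0.132 over all).

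Pair levels that turned sign were Gata1 at 0.079 (TMM) and 0.0011 (all pairs), Klf1 at 0.052 (TMM) and Gfi1b at -0.17 (without the 7 pairs) and -0.37 (all pairs), and without the 7 pairs 1 member passed. Differences between daughters that turned sign were Gata1 at -0.063 (all pairs), Gata2 at 0.70, Klf1 at -0.027 and Lmo2 at 0.10 (without the 7 pairs) and Tal1 at -0.095 (pseudocount 10). The cause was not tested.

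Detection at 1 count or more, which scales with depth, gave 28 cells with Gata2, 35 with Spi1, 34 with Gata1 and Spi1, 28 with Gata1 and Gata2, 1 with Spi1 but no Gata1, 0 with Gata2 but no Gata1, and 1 each with Gata1 or Klf1 alone of that pair. At 50 CPM 1 cell held Klf1 without Gata1, 6 held Gata1 and Spi1, 1 held neither, and Gata1 and Spi1 were each in 1 daughter of 2 pairs. With libraries thinned to 200000 counts and at least 2 counts, 0 pairs held Gata1 or Klf1 in 1 daughter.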

Other observations

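Other regulators were also compared between the 12 granule-marker cells and the other 36, as values with no test, since the cells were set apart by measured genes. Irf8, a regulator of monocyte precursors, reached 10 CPM in 5 of the 12 cells, with at most 987 CPM, and in 0 of the 36, where it stood at most at 1.01 CPM. Flt3, a receptor of early progenitors, reached 10 CPM in 7 of the 12 and 0 of the 36, and Cd34 in 10 of the 12 and 1 of the 36. Mllt3, of the same stem cell marker list, went the other way, with 1 of the 12 and 26 of the 36. Meis1 of that list reached 10 CPM in 5 of the 12 and 5 of the 36. Fli1, an ETS factor of platelet precursors, was detected in 10 of the 12 cells and in 10 of the 36. Hmgb3 was detected in 9 of the 12 and in all 36, with medians of 150 and 365 CPM. Bcl11a, a repressor of embryonic globin genes, had medians of 3.37 and 160 CPM. Myb, which sustains progenitors, had medians of 97.9 and 16.2 CPM, and its ranges overlapped (0 to 804 and 0 to 414 CPM).

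At least 3 of 10 megakaryocyte markers reached 10 CPM in 9 cells, 4 untreated and 5 dexamethasone, and 7 of these 9 were not granule-marker cells. At least 3 of 8 stem cell markers reached it in 4 cells, all of them granule-marker cells. No library held 3 mast cell, macrophage, lymphoid, hepatocyte or endothelial markers.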
